A study of Mus musculus with 130 samples.

Results

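The genes described here are 31 genes of homologous recombination, Fanconi crosslink repair and mismatch repair, taken by name from the 52550 genes of the count table: Brca1, Bard1, Palb2, Brca2, Brip1, Rad51ap1, Rad51b, Rad51c, Rad51d, Xrcc2, Xrcc3, Rad52, Rad54l, Rad54b, Mms22l, Nbn, Rad50, Exo1, Blm, Fanca, Fancb, Fancc, Fance, Fancf, Fancg, Fancl, Fancm, Fancd2, Fanci, Rad18 and Msh6. All 31 had counts enough to be tested. RNA was sequenced from mouse embryos of the FVB/NJ strain with FUCCI, a pair of fluorescent proteins whose colour follows the cell cycle, in a series whose title names E2F transcription factors. Embryos were minced and sorted by flow into 4 gates, which the labels code BR for G0, DR for G1, YE for G1-S and GR for S-G2-M, with unsorted cells (US) beside them. The 130 deposited samples were parts of 25 libraries, 5 fractions from each of 5 preparations. WT1 and WT2 are from E10.5 embryos, WT3 from E11.5 embryos, and those titled 5 and 8 from E13.5 embryos. All groups are wild type by the design text and no treatment is named. Neither the number of embryos in a preparation nor the promoter of the reporter is given in the labels, and p-values measure the spread between these preparations.

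Homologous recombination repairs a broken chromosome by copying the sister chromatid, which exists only after replication. Broken ends are cut back to single strands, mediators of the BRCA group load the strand exchange recombinase onto them, and helicases take the joined strands apart again. The Fanconi pathway detects crosslinks between the DNA strands at stalled replication forks. Its core complex attaches ubiquitin to FANCD2 and FANCI, and the repair is then passed on to nucleases and to recombination. Mismatch repair corrects bases that the polymerase put in wrongly. Many genes of DNA replication and repair are known E2F targets.

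Promoter sequence is shown first because the series asks about E2F, whose sites lie close to start sites. RefSeq promoter windows on GRCm38.p6, from 250 bases before to 50 bases after a start, were at hand for 24 of the 31 genes, as 28 windows. An E2F motif (TTTCCCGC, TTTCGCGC, TTTGCCGC or TTTGGCGC, on either strand) stood in 6 of these 28 windows, or 21.4%, and in 2.3% of the 32851 windows of all genes. The 6 windows belonged to 5 genes, Bard1, Brca2, Fancg, Msh6 and Rad51c. Each match is printed with its surroundings as 30 bases, 5′ to 3′ on the strand of the gene, with the motif in capitals.
Bard1, chr1:71103163-71103192, minus strand: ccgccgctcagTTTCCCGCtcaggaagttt
Brca2, chr5:150522442-150522471, plus strand: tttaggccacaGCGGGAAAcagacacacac
Fancg, chr4:43010335-43010364, minus strand: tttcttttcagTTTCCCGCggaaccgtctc
Msh6, chr17:87975054-87975083, plus strand: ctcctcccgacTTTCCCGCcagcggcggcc
Rad51c, first window, chr11:87404477-87404506, minus strand: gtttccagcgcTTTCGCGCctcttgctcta
Rad51c, second window, chr11:87404941-87404970, minus strand: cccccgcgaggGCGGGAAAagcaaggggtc
Brca2 and the second Rad51c window hold the motif on the opposite strand. The matches began 209 bases before the start in Bard1, 168 before it in Brca2 and 52 before it in Fancg, and 15 bases after it in Msh6. A CCAAT box, in either strand, stood in 60.7% of the windows of these genes and in 37.4% of all windows. The CHR motif (TTTGAA or TTCGAA) stood in 7.1% of them and in 19.2% of all. No matches overlapped one another, and a match is a run of letters and not a measured site.

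The 100 bases before the start are given for the genes with the highest and the lowest signed log2 change of their role group in G1-S against G1, where the table holds them (Rad51d, Exo1, Rad50 and Fancd2 had no entry). Capitals mark the same 3 motif classes, and in these stretches all of them are CCAAT boxes.
Brip1 (highest, BRCA mediators), chr11:86201194-86201293, minus strand: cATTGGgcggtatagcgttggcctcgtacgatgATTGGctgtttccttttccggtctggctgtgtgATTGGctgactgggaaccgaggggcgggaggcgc
Palb2 (lowest, BRCA mediators), chr7:122132947-122133046, minus strand: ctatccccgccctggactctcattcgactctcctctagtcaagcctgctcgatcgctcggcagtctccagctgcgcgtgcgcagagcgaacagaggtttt
Rad51ap1 (highest, strand exchange), chr6:126939588-126939687, minus strand: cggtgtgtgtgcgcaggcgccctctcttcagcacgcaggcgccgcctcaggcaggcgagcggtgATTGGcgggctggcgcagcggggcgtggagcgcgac
Fanca (highest, Fanconi core), chr8:123318577-123318676, minus strand: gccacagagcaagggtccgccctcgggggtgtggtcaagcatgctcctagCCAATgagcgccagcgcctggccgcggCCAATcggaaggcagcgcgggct
Fance (lowest, Fanconi core), chr17:28313430-28313529, plus strand: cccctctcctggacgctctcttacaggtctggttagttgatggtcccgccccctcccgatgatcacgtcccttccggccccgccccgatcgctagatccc
Fanci (lowest, ID complex), chr7:79392238-79392337, plus strand: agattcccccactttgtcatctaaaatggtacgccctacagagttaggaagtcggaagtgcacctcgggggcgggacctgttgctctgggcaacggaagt
Rad18 (highest, of Rad18 and Msh6), chr6:112696649-112696748, minus strand: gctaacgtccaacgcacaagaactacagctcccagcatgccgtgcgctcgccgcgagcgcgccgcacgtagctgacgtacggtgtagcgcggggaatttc
Msh6 (lowest, of Rad18 and Msh6), chr17:87974950-87975049, plus strand: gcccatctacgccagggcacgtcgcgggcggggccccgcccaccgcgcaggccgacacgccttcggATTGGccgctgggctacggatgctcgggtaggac
Brip1 holds 3 CCAAT boxes in this stretch and Fanca holds 2. Rad51ap1 and Msh6 hold 1 each, and Palb2, Fance, Fanci and Rad18 hold none of the searched letters here.

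Library totals ran from 14692256 to 58492064 counts, with a median of 22852555. Levels are given as CPM, the usual scaling of counts to the library total (here the TMM-adjusted total), in the order WT1, WT2, WT3, 5 and 8. The gates bore the marks of their labels: the summed level of 10 S-G2-M marker genes was 62.3 to 162 CPM in G0, 191 to 456 CPM in G1, 1937 to 3299 CPM in G1-S and 5045 to 6498 CPM in S-G2-M. The cell types of the gates also differed, as 12 neuronal genes summed to 5802 to 10122 CPM in G0, 841 to 2188 CPM in G1, 457 to 1003 CPM in G1-S and 234 to 588 CPM in S-G2-M. At E13.5 the preparations are titled in another style than at the earlier days, and mitochondrially encoded genes took 1.66% to 3.42% of their counts, against 0.372% to 0.701% in the WT-titled libraries, so that day and batch cannot be told apart. In these bulk samples fewer cells of a type and less RNA per cell cannot be told apart either.

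**Figure D1:**
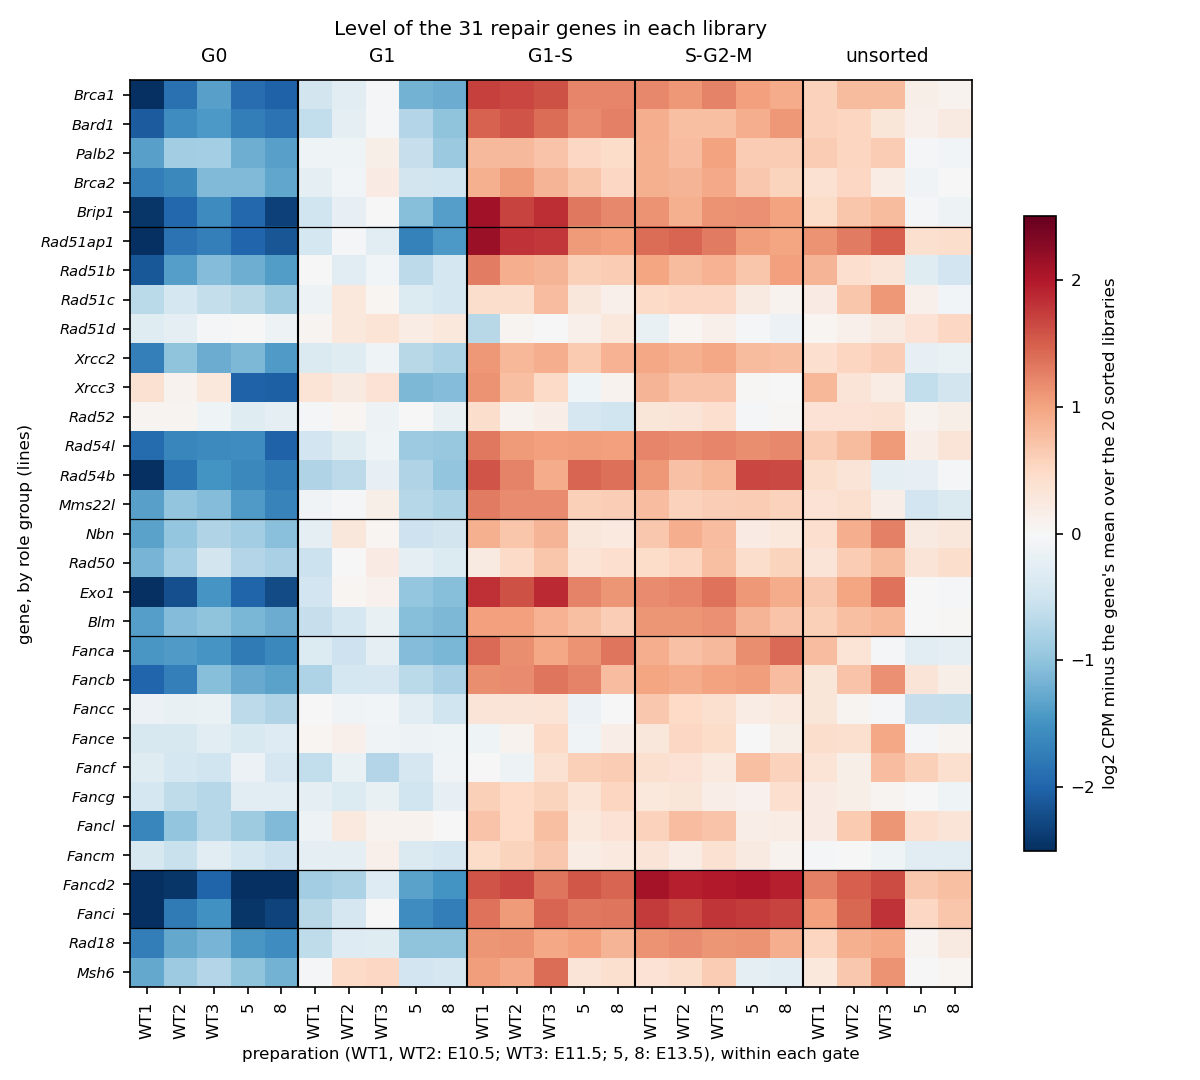
Level of each of the 31 genes (rows, by role group) in each of the 25 libraries (columns, by gate and preparation), as log2 CPM minus the mean of that gene over the 20 sorted libraries; colours end at ±2.5. Blue fills G0 for most genes and red fills G1-S and S-G2-M, while Rad51d, Rad52 and Fance stay pale in most libraries.

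The question of the series is how expression differs between phases. The repair genes were low in G0, higher in G1 and highest in the G1-S and S-G2-M gates. By mean level over the 5 preparations the lowest gate was G0 for 30 genes and G1 for Fancf. The highest gate was G1-S for 19 genes, S-G2-M for 11 and G1 for Rad51d. For 25 genes the level was higher in G1 than in G0 and higher again in G1-S than in G1 within every preparation. How many of all genes followed this order was not counted. Between the last gates, G1-S and S-G2-M, few genes moved.

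In S-G2-M against G0, the span of the sorted cycle, 30 of 31 genes rose by edgeR's quasi-likelihood test with Benjamini-Hochberg adjustment over 23506 genes, where 27.5% of all genes tested rose and 26.6% fell. No gene fell, also at an unadjusted p under 0.05 and by DESeq2. The median log2 change of the 31 genes was 2.12, against -0.01 over all genes tested. Ranges in S-G2-M and G0 did not overlap for 28 genes, which was not counted over all genes. The exception was Rad51d, a paralog of the recombinase that helps it form filaments, with a log2 change of 0.11 ± 0.13 (SE, n = 5 libraries a gate, edgeR adjusted p = 0.491). The largest changes were those of Fancd2 (4.55 ± 0.18), Fanci (3.85 ± 0.23), Exo1 (3.30 ± 0.21) and Rad51ap1 (3.25 ± 0.20).

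In G1 against G0, 26 genes rose and none fell, where 18.2% of all genes rose and 18.1% fell. The count of lower genes was 0 also at an unadjusted p under 0.05 and by DESeq2. Their median log2 change was 0.84, against 0.01 over all genes. In all 5 preparations 27 genes were higher in G1, which was not counted over all genes. Exo1 changed most, by 1.68 ± 0.20 (SE; edgeR adjusted p = 8.67e-07). Xrcc3 (0.30 ± 0.21), Rad52 (0.05 ± 0.11), Fancc (0.19 ± 0.09), Fancf (-0.03 ± 0.15) and Fancg (0.17 ± 0.11) did not pass the test. The calls of Rad51d, Fance and Fancm, with log2 changes of 0.36, 0.33 and 0.22, were lost without single preparations. Without WT2 their adjusted p were 0.0762, 0.143 and 0.0577. All 12 neuronal markers were lower in G1 than in G0 (median log2 change -2.95) and all 10 markers of G1-S were higher (1.56). Higher too were 7 of 8 macrophage markers (2.01), 7 of 10 erythroid markers (1.92) and 6 of 8 cartilage markers (1.41), and 4 of 8 cardiac markers were lower (-1.41). Their part in the changes of the repair genes was not tested.

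In G1-S against G1, 28 genes rose and none fell, where 11.7% of all genes rose and 7.18% fell. The count of lower genes was again 0 at an unadjusted p under 0.05 and by DESeq2. The median log2 change was 1.15, against 0.01 over all genes. Ranges did not overlap for 22 genes, which was not counted over all genes. Rises of more than 2 on the log2 scale were those of Fancd2 (2.47 ± 0.16), Rad51ap1 (2.30 ± 0.18), Brip1 (2.23 ± 0.17), Fanci (2.14 ± 0.21) and Brca1 (2.11 ± 0.15). Rad51d (-0.24 ± 0.13), Rad52 (0.02 ± 0.11) and Fance (0.13 ± 0.12) did not pass the test. The rises of Rad51c (0.53), Xrcc3 (0.73), Fancc (0.36) and Fancl (0.46) were called with all libraries but not without preparation 8, with adjusted p = 0.0782, 0.0819, 0.143 and 0.155. The 10 markers of S-G2-M rose in this step as well (median log2 change 3.14), as did the 10 markers of G1-S (1.49). All 8 hepatocyte markers (4.58), all 8 macrophage markers (2.07) and 7 of 8 cardiac markers (2.77) were higher, and 6 of 12 neuronal markers were lower (-0.97). The hepatocyte markers summed to 7.6 to 25.5 CPM in G1 and 20.6 to 119 CPM in G1-S in the WT-titled libraries. At E13.5 they summed to 20.6 to 25.3 CPM in G1 and 1630 to 2174 CPM in G1-S. The part of all these markers in the rises was not tested.

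In S-G2-M against G1-S, 1 gene rose and 3 fell, where 7.28% of all genes rose and 10.1% fell, and the members' counts lie near these shares. The median log2 change was -0.02, against 0.00 over all genes. Fancd2 rose by 0.47 ± 0.15 (SE; edgeR adjusted p = 0.033). Bard1 (-0.48 ± 0.13, adjusted p = 0.0146), Brip1 (-0.56 ± 0.16, adjusted p = 0.02) and Msh6 (-0.64 ± 0.12, adjusted p = 0.00114) fell. Of these calls that of Msh6 held with each preparation left out in turn, and the others did not. Fancd2 was not called without WT1, WT2, 5 or 8 (adjusted p 0.0855 to 0.112), Bard1 was not called without WT2 or WT3 (0.0982 and 0.0619), and Brip1 was not called without WT1, WT2 or WT3 (0.107, 0.0836 and 0.0983). Of the markers of G1-S 7 of 10 fell in this step (median log2 change -0.53), and all 10 markers of S-G2-M rose (1.20). All 8 hepatocyte (-3.47), all 8 macrophage (-3.97) and all 8 cardiac markers (-4.23) were lower, with 7 of 10 erythroid (-1.87) and 5 of 12 neuronal markers (-1.09). The hepatocyte markers summed to 20.6 to 119 CPM in G1-S and 19.9 to 33.5 CPM in S-G2-M in the WT-titled libraries. At E13.5 they summed to 1630 to 2174 CPM in G1-S and 25.5 to 35.0 CPM in S-G2-M. The part of all these markers in these calls was not tested.

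**Figure D2:**
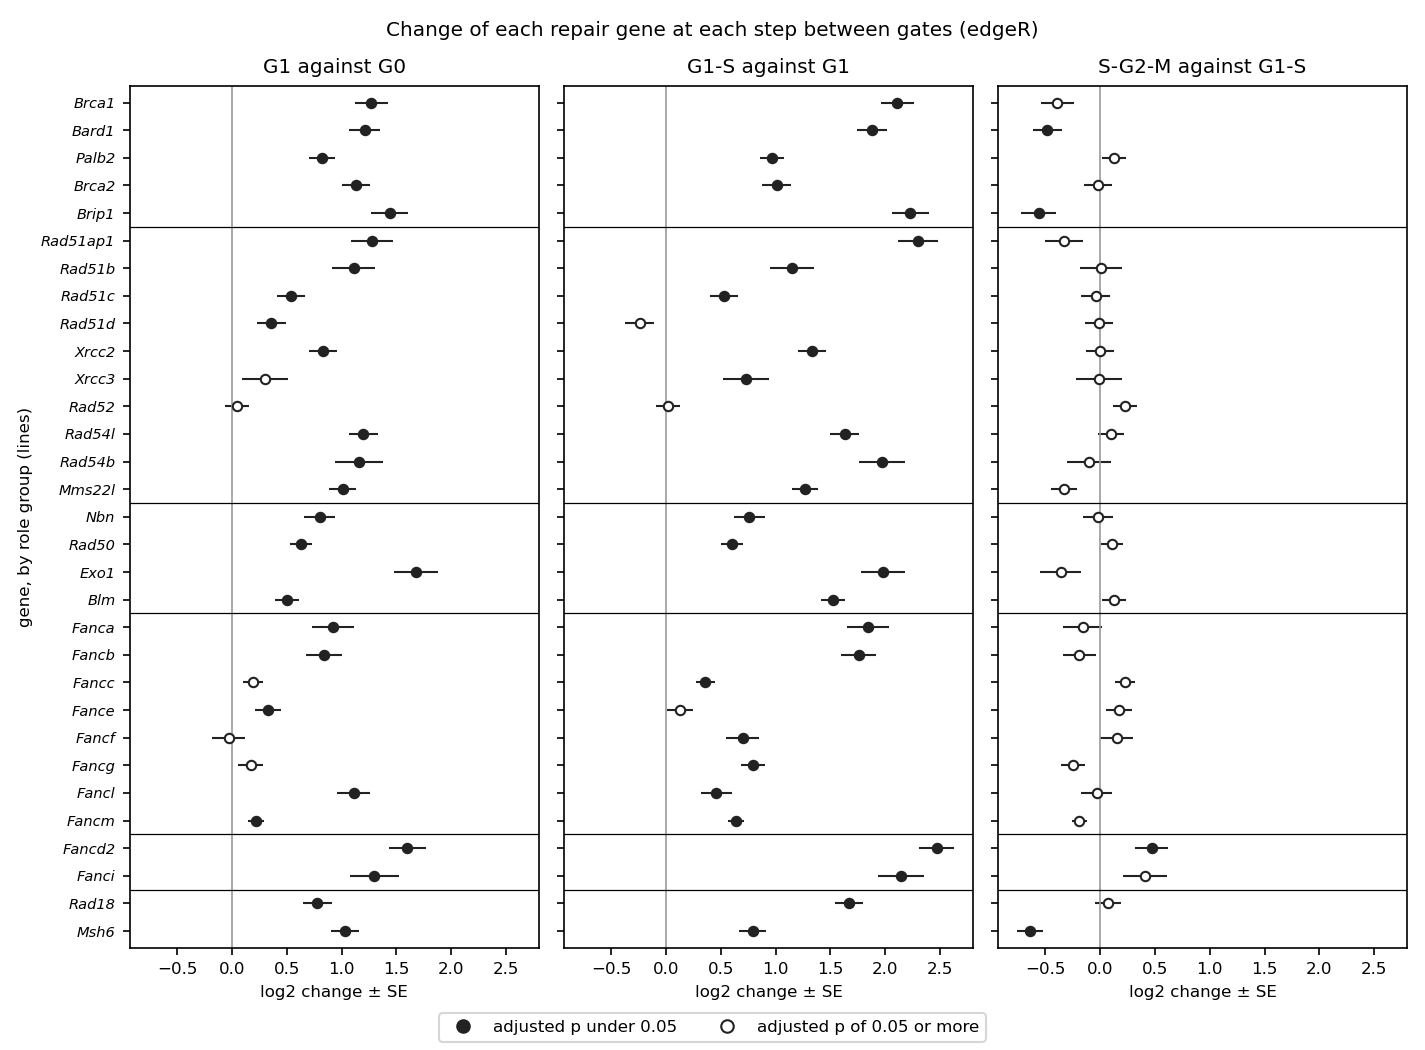
Log2 change of each of the 31 genes (± SE, edgeR, 5 libraries a gate) in G1 against G0, G1-S against G1 and S-G2-M against G1-S; filled points passed the test at an adjusted p under 0.05. Most points lie right of 0 in the first and second panels, up to 2.47 for Fancd2, and all lie between -0.64 and 0.47 in the third.

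The step values could be set apart by batch. In G1 against G0, 23 genes rose in the WT-titled preparations alone, where 13.4% of all genes did, and 24 in preparations 5 and 8 alone, where 20.2% did. In G1-S against G1, 23 rose in the WT-titled preparations (4.9% of all genes) and 26 in 5 and 8 (22.5%). In S-G2-M against G0, 30 rose in the WT-titled preparations (24.5% of all genes) and 29 in 5 and 8 (26.6%). Preparations 5 and 8 alone also gave the only fall in G1-S against G1, of Rad52 (log2 change -0.43, adjusted p = 0.00735). In S-G2-M against G1-S, Bard1, Brip1, Mms22l and Msh6 fell within the WT-titled preparations, where 6.96% of all genes fell. Within 5 and 8, Brca1 and Msh6 fell and Rad52, Fancd2 and Fanci rose, where 13.8% of all genes fell and 9.68% rose, so that these 3 rises are at the share of all genes.

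The BRCA mediators all rose in the first and second steps. Brca1 and Bard1 form a ubiquitin ligase that promotes recombination, Palb2 links Brca1 to Brca2, Brca2 loads the recombinase, and Brip1 is a helicase that binds Brca1. Brca1 (chromosome 11 from 101488764 to 101551955, minus strand, GRCm38) stood at 15.1, 23.6, 33.8, 23.0 and 21.1 CPM in G0 and at 62.5, 70.6, 83.0, 37.8 and 36.4 CPM in G1. It then stood at 282, 275, 260, 202 and 200 CPM in G1-S and at 197, 183, 204, 176 and 165 CPM in S-G2-M. The gates G0, G1 and G1-S did not overlap, and each S-G2-M library was below the G1-S library of its preparation, although that difference did not pass the test (-0.39 ± 0.15, adjusted p = 0.0709).

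Brip1 (chromosome 11 from 86058138 to 86201193, minus strand) stood at 5.88, 8.07, 10.6, 8.1 and 6.24 CPM in G0 and at 22.3, 27.3, 31.8, 15.1 and 12.2 CPM in G1. In G1-S it reached 136, 102, 113, 78.3 and 72.2 CPM, and in S-G2-M 68.6, 58.5, 69.2, 69.9 and 63.2 CPM. No gate overlapped another. Bard1 followed a like course, with 6.7 to 10.4 CPM in G0, 14.1 to 27.2 CPM in G1, 64.0 to 83.8 CPM in G1-S and 47.7 to 59.7 CPM in S-G2-M. Palb2, with the smallest G1-S rise of the group, stood at 7.34, 10.3, 10.4, 8.1 and 7.38 CPM in G0 and at 17.4, 17.5, 20.9, 12.7 and 9.87 CPM in G1. It stood at 32.9, 33.1, 31, 26.8 and 25.8 CPM in G1-S and at 34.9, 32.2, 37.9, 29.2 and 29.4 CPM in S-G2-M. Its G1 and G0 ranges overlapped, and so did S-G2-M and G1-S. Brca2 rose by 1.13 ± 0.13 in G1 against G0 and by 1.01 ± 0.13 in G1-S against G1 (adjusted p = 4.14e-07 and 3.79e-06), and its change in the last step was -0.02 ± 0.13 (adjusted p = 0.938).

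The strand exchange group held both strong risers and genes that did not pass the test. Of its 10 genes 8 rose in G1 against G0, 8 rose in G1-S against G1, and in S-G2-M against G1-S their log2 changes lay between -0.33 and 0.23 without passing the test. Rad51ap1, which binds the recombinase and stimulates strand pairing, stood at 3.54, 5.54, 6.04, 5.04 and 4.52 CPM in G0 and at 14.7, 19.5, 16.2, 6.14 and 7.28 CPM in G1. It reached 88.4, 68.9, 67.8, 41.5 and 40.4 CPM in G1-S, and 52.5, 54.3, 48.8, 41.1 and 39.5 CPM in S-G2-M. The G0, G1 and G1-S ranges were apart, and the E13.5 libraries of G1 and G1-S were the lowest of their gate. The translocases Rad54l and Rad54b, which remodel the joined strands, rose by 1.63 ± 0.13 and 1.97 ± 0.21 in G1-S against G1. Mms22l, which acts at stalled forks, rose by 1.27 ± 0.12.

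The paralogs of the recombinase did not move alike. Xrcc2 rose by 0.83 ± 0.13 in G1 against G0 and by 1.33 ± 0.13 in G1-S against G1 (adjusted p = 3.15e-05 and 6.22e-08). Rad51b rose by 1.11 ± 0.20 and 1.15 ± 0.20 in the same steps, and Rad51c by 0.54 ± 0.13 and 0.53 ± 0.13. Rad51d (chromosome 11 from 82876434 to 82890614, minus strand) stood at 8.43, 8.94, 10, 10.3 and 9.56 CPM in G0, at 10.9, 12.4, 13.1, 11.8 and 12.5 CPM in G1, at 6.45, 10.9, 10.3, 11.3 and 12.5 CPM in G1-S and at 9.15, 10.8, 11.3, 10.2 and 9.42 CPM in S-G2-M. G1 lay above G0 in each preparation (0.36 ± 0.13, adjusted p = 0.0301), and the other neighbouring gates overlapped. Rad52, an annealing protein, had 14.6 to 18.7 CPM in G0, 15.8 to 18.4 CPM in G1, 12.7 to 24.4 CPM in G1-S and 17.2 to 24.1 CPM in S-G2-M. All its gates overlapped with their neighbours, and S-G2-M against G0 gave 0.31 ± 0.11 (adjusted p = 0.0198), which did not hold without WT2, WT3 or 8 (0.0646, 0.0809 and 0.062). Xrcc3 is described with the days.

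**Figure D3:**
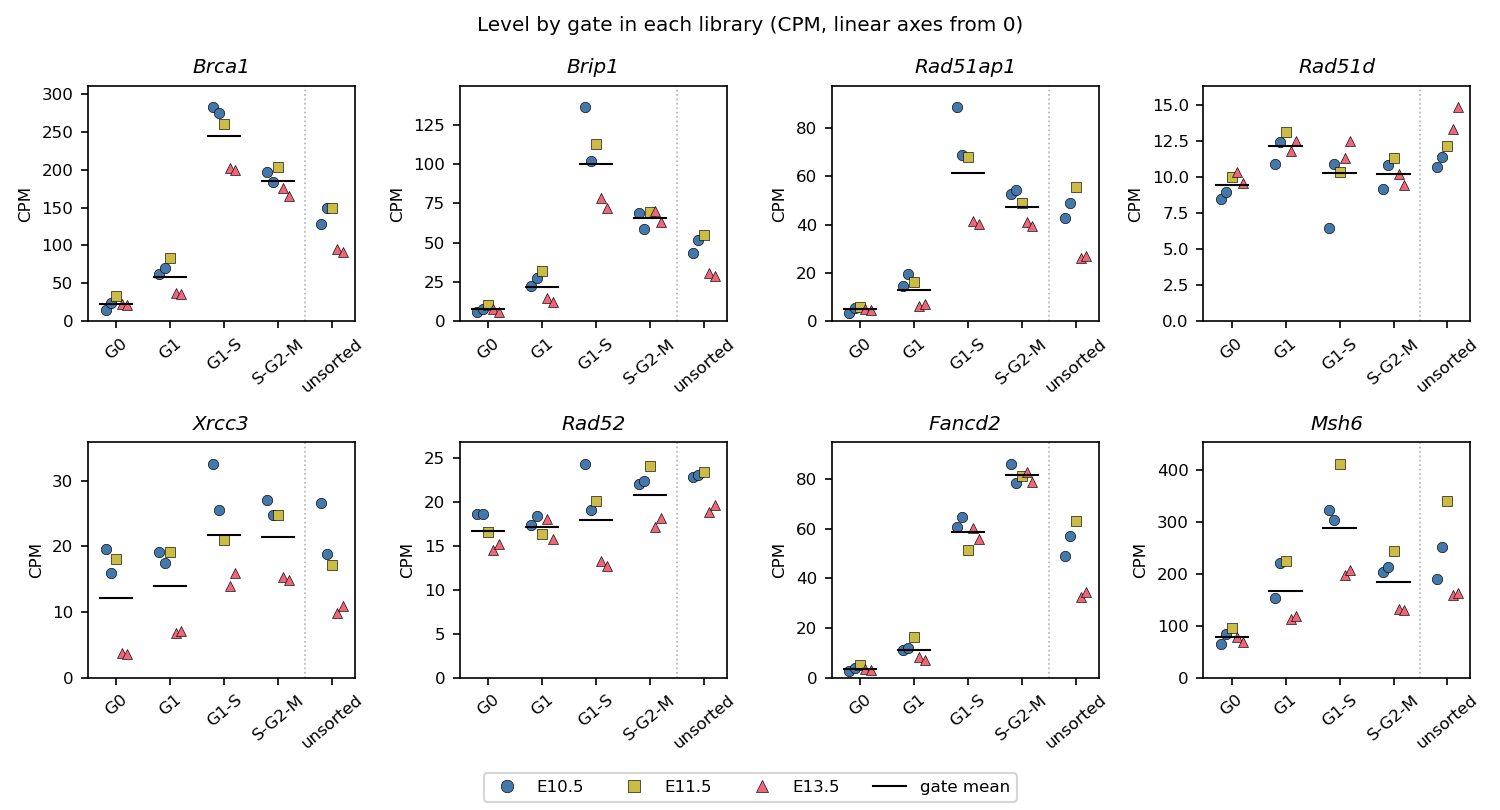
Level (CPM, linear axes from 0) of 8 of the genes in each library of the 4 gates and of unsorted cells; points are libraries, coloured by embryonic day, and bars are means of the sorted gates (n = 5). Brca1, Brip1, Rad51ap1 and Msh6 peak in G1-S and Fancd2 in S-G2-M, while Rad51d and Rad52 stay near one level and Xrcc3 at E13.5 lies apart from the other days.

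All 4 genes of end resection and dissolution rose in the first and second steps, and in the third their log2 changes lay between -0.36 and 0.13 without passing the test. Exo1, a nuclease that cuts back broken ends and also serves mismatch repair, stood at 6.66, 12.8, 21, 14.6 and 12.4 CPM in G0 and at 41.8, 60.4, 63.0, 29.7 and 27.9 CPM in G1. It reached 206, 177, 213, 138 and 125 CPM in G1-S and 133, 136, 150, 124 and 111 CPM in S-G2-M. The G0, G1 and G1-S ranges were apart, and each S-G2-M library was below its G1-S library (-0.36 ± 0.19, adjusted p = 0.215). Rad50, a subunit of the complex that first binds broken ends, had the smallest rise of the 4 in G1-S against G1 (0.60 ± 0.10). It stood at 22.1, 27.5, 35.9, 29.8 and 28.3 CPM in G0, 33.9, 49.8, 57.1, 42.3 and 39 CPM in G1, 58.0, 68.5, 79.6, 62.8 and 66.6 CPM in G1-S and 68.4, 71.8, 83.0, 67.1 and 72.5 CPM in S-G2-M. G1 overlapped G0, and G1-S lay above G1. Nbn, of the same complex, rose by 0.80 ± 0.14 and 0.76 ± 0.14. Blm, a helicase that dissolves joined molecules, rose by 0.50 ± 0.11 and then by 1.52 ± 0.11 (adjusted p = 0.0011 and 5.46e-10).

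The 8 genes of the Fanconi core complex and its anchor rose in 5 cases in G1 against G0 and in 7 in G1-S against G1, by a median log2 change of 0.27 and 0.67. All 8 were higher in S-G2-M than in G0, by 0.63 to 2.60. Fanca and Fancb, subunits of the core, moved most. Fanca (chromosome 8 from 123268300 to 123318576, minus strand) stood at 15.9, 16.5, 15.7, 12.8 and 14.3 CPM in G0, 34.4, 30.5, 37.4, 20.6 and 19.8 CPM in G1, 117, 98.0, 85.6, 95.2 and 110 CPM in G1-S and 82.6, 72.4, 77.0, 98.5 and 117 CPM in S-G2-M. G0, G1 and G1-S did not overlap. Fance, also a core subunit, stood at 16.9, 16.9, 18.2, 17.1 and 17.8 CPM in G0 and at 23.0, 24.3, 21, 20.3 and 20.5 CPM in G1. It stood at 20.5, 23.6, 30.8, 20.8 and 25 CPM in G1-S and at 27.1, 31.6, 30.6, 22 and 24.5 CPM in S-G2-M, so that only G0 lay apart from the rest. Fancl, the ubiquitin ligase of the core, rose by 1.11 ± 0.15 in G1 against G0 and by 0.46 ± 0.14 in the next step. Fancm, a translocase that brings the core to DNA, rose by 0.22 ± 0.07 and 0.64 ± 0.07. Fancc, Fancf and Fancg, further core subunits, passed the test in G1-S against G1 only of these steps, by 0.36 ± 0.09, 0.70 ± 0.15 and 0.79 ± 0.11.

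Fancd2 and Fanci, the pair that the core complex modifies, had the widest span of the 31 genes. Fancd2 (chromosome 6 from 113531682 to 113597017, plus strand) stood at 2.69, 3.8, 5.1, 3.41 and 2.86 CPM in G0 and at 11.2, 11.8, 16.4, 8.12 and 7.23 CPM in G1. It stood at 60.8, 64.8, 51.3, 60.2 and 55.8 CPM in G1-S and at 86.2, 78.6, 81.2, 83.0 and 78.9 CPM in S-G2-M, and no gate overlapped another. The fitted change of S-G2-M against G0 was 23.4-fold. Fanci stood at 2.99, 5.8, 6.89, 3.65 and 3.95 CPM in G0, 12.2, 14.6, 19.6, 6.67 and 5.91 CPM in G1, 50, 41.0, 53.9, 48.8 and 49.8 CPM in G1-S and 65.8, 60.9, 68.0, 66.0 and 62.9 CPM in S-G2-M. Its G1 and G0 ranges overlapped. Its S-G2-M libraries all lay above its G1-S libraries, but the difference did not pass the test (0.41 ± 0.20, adjusted p = 0.165). The fitted change of S-G2-M against G0 was 14.5-fold.

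Rad18, a ubiquitin ligase that acts at stalled forks, and Msh6, a subunit of the complex that recognises mismatches, rose in both early steps and differed in the last. Rad18 stood at 9.93, 13.5, 14.7, 12 and 11.2 CPM in G0, 21.1, 26.2, 26.6, 16.3 and 16.3 CPM in G1, 70.9, 71.2, 64.0, 66.7 and 59.4 CPM in G1-S and 71.5, 74.2, 70.9, 71.6 and 61.3 CPM in S-G2-M. Its last gates overlapped (0.07 ± 0.12, adjusted p = 0.763). Msh6 (chromosome 17 from 87975062 to 87990892, plus strand) stood at 64.8, 83.5, 94.6, 78.2 and 68.9 CPM in G0 and at 154, 220, 225, 113 and 118 CPM in G1. It stood at 322, 304, 412, 197 and 208 CPM in G1-S and at 203, 212, 243, 132 and 130 CPM in S-G2-M. The ranges of S-G2-M and G1-S overlapped because the E13.5 libraries were lower in both, yet S-G2-M was below G1-S in each of the 5 preparations.

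Other repair genes were read in the same fit, where 11.7% of all genes rose and 7.18% fell in G1-S against G1, and the lists were not compared by a test. Of 28 other recombination genes 17 rose and none fell in G1-S against G1 (median log2 change 0.47), led by the resolvase Gen1 (2.57) and the nuclease subunit Eme1 (2.30). Of 14 other Fanconi genes 5 rose and 1 fell (median 0.11). The conjugating enzyme Ube2t rose by 1.92 ± 0.21, and the nuclease subunit Ercc4 fell by 0.38 on the log2 scale. Of 12 other mismatch repair genes 11 rose (median 0.65), with the sliding clamp Pcna at 1.58. Pcna is also among the markers of G1-S, so that this list and those markers overlap. Of 20 checkpoint genes 15 rose and 1 fell (median 0.67), the histone variant H2afx by 2.34 and the adaptor Clspn by 2.03.

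End joining and excision repair do not copy a sister chromatid. Of 10 end joining genes 1 rose, a share near that of all genes. It was Xrcc6 (0.73 ± 0.12), and 2 fell, Paxx (-0.74 ± 0.16) and Polm (-0.56 ± 0.15). Of 17 nucleotide excision repair genes none rose and 5 fell (median 0.11), among them Uvssa (-0.58 ± 0.13) and Xpa (-0.41 ± 0.12). Of 21 base excision genes 9 rose and 2 fell (median 0.09), and the glycosylase Neil3 rose by 3.24 ± 0.25. In S-G2-M against G0, where 27.5% of all genes rose and 26.6% fell, the higher and lower counts were 24 and 1 for other recombination, 9 and 2 for other Fanconi, 11 and 0 for other mismatch, 18 and 1 for checkpoint, 4 and 2 for end joining, 10 and 5 for nucleotide excision and 11 and 4 for base excision genes.

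The design also spans embryonic days, and E13.5 was set against E10.5 within each fraction (n = 2 preparations each). The spread in these tests was pooled over the libraries of all fractions. They were taken as independent, although those of 1 preparation deviated together. More of the repair genes were called lower than higher at E13.5 in each fraction, as were more of all genes tested, in G1-S by very few. In G0 and S-G2-M the counts of lower repair genes were not above the share of all genes. In G0 more repair genes were called higher than lower without WT2 and without WT3. With no filter, and without preparation 8, as many were called higher as lower there. The fractions were not compared by a test. Because day and preparation batch cannot be told apart, these are differences between preparations 5 and 8 and preparations WT1 and WT2. Leaving out 1 E13.5 preparation leaves a single library, assumed to vary like the other groups. It lowered every count of lower repair genes, and that of all genes tested as well. The shares of all genes given with each fraction are those of the fit with all libraries.

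In unsorted cells 24 genes fell at E13.5 and none rose, where 28.7% of all genes fell and 25.2% rose, with 0 higher also at an unadjusted p under 0.05 and by DESeq2. The median log2 change was -0.52, against -0.08 over all genes. The count of lower genes was smaller without preparation 5 and without 8, as was that over all genes. Xrcc3 (-1.13 ± 0.18), Rad51b (-1.04 ± 0.23) and Exo1 (-0.85 ± 0.21) had the largest falls. In the same cells all 8 hepatocyte (median log2 change 3.95), all 8 macrophage (1.57) and all 8 cartilage markers (2.38) and 6 of 10 erythroid markers (1.26) were higher at E13.5, and their part in the falls was not tested. In G1 19 genes fell and none rose, where 28.5% of all genes fell and 18.7% rose, with 0 higher also at an unadjusted p under 0.05 and by DESeq2. The median was -0.47, against -0.11 over all genes. Fewer of these genes were called lower without preparation 5 and without 8, and fewer of all genes as well. Without 8 the repair genes were no longer called lower more often than all genes. Xrcc3 (-1.38 ± 0.18), Rad51ap1 (-1.35 ± 0.19) and Fanci (-1.10 ± 0.22) had the largest falls. The G1 libraries also had less of the cycling markers at E13.5: the S-G2-M markers summed to 191 to 201 CPM at E13.5 and 329 to 456 CPM in the WT-titled libraries, and the G1-S markers to 768 to 807 CPM at E13.5 and 1221 to 1881 CPM in the WT-titled libraries. Cartilage markers were higher at E13.5 (7 of 8, median log2 change 3.33), at 5434 to 5937 CPM against 803 to 911 CPM in the WT-titled libraries, and 9 of 12 neuronal markers were lower (-0.85). Their part in the falls was not tested.

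In G1-S 12 genes fell and 1 rose at E13.5, where 19.8% of all genes fell and 19.8% rose (median log2 change -0.30, against -0.02 over all genes). The gene that rose was Fancf, with 12.3 and 12.5 CPM at E13.5 and 8.18 and 7.46 CPM at E10.5 (0.67 ± 0.19, adjusted p = 0.0109). It was not called without preparation 5 (adjusted p = 0.12), without 8 (0.14) or with no filter (0.0501). Without preparation 5 and without 8 the count of lower genes fell to near the share of all genes in the same fit. Hepatocyte markers differed at this gate, summing to 1630 to 2174 CPM at E13.5 and 20.6 to 119 CPM in the WT-titled libraries (median log2 change 6.07). Macrophage markers (8 of 8, 1.80) and cartilage markers (7 of 8, 1.91) were also higher at E13.5. Of the phase markers 8 of 10 for G1-S were lower (-0.67) and 7 of 10 for S-G2-M were higher (0.96). Their part in the falls was not tested. In S-G2-M 7 genes fell and 2 rose, where 24.1% of all genes fell and 18.9% rose, and the median of -0.13 lay near the -0.07 of all genes. By edgeR no gene was called there without preparation 5 or without 8. Of the G1-S phase markers 9 of 10 were lower there (-0.72), and 7 of 8 cartilage (2.14) and 8 of 12 neuronal markers were higher. Rad54b had 65.2 and 64.3 CPM at E13.5 and 43.2 and 34.0 CPM at E10.5 (0.75 ± 0.17, adjusted p = 0.00212), and Fanca had 98.5 and 117 CPM at E13.5 and 82.6 and 72.4 CPM at E10.5 (0.48 ± 0.14, adjusted p = 0.0128). In G0 3 genes fell and 1 rose, where 22.5% of all genes fell and 20.4% rose, with a median of 0.04. Mms22l, Fancc and Xrcc3 fell, and Brca2 rose with 38 and 33.0 CPM at E13.5 and 24.6 and 26.7 CPM at E10.5 (0.47 ± 0.11, adjusted p = 0.00287). Without preparation 5, 1 gene fell and none rose in G0, and without 8, 1 fell and 1 rose. Without WT2 it was 9 genes that rose and without WT3 3, and 6 fell without WT1.

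Xrcc3 and Fancc fell at E13.5 in all 5 fractions. Xrcc3 (chromosome 12 from 111803192 to 111813873, minus strand) had 3.7 and 3.64 CPM at E13.5 and 19.6 and 16.0 CPM at E10.5 in G0, a log2 change of -2.28 ± 0.19 (adjusted p = 1.04e-07). It had 6.86 and 7.13 CPM at E13.5 and 19.1 and 17.5 CPM at E10.5 in G1, and 14 and 15.9 CPM at E13.5 and 32.6 and 25.5 CPM at E10.5 in G1-S. In S-G2-M it had 15.4 and 14.9 CPM at E13.5 and 27.1 and 24.7 CPM at E10.5. E13.5 and E10.5 did not overlap in any fraction. The E11.5 libraries stood at 18.0, 19.2, 20.9 and 24.8 CPM over the 4 gates. In G1-S that level lay between the other days, and in the other gates it lay with or near E10.5. Within E13.5 Xrcc3 was higher in G1 than in G0 (0.92, adjusted p = 0.000206, preparations 5 and 8 alone), although it did not pass that test over all days. Fancc changed by -0.53 ± 0.13 in G0, -0.33 ± 0.13 in G1, -0.40 ± 0.13 in G1-S, -0.37 ± 0.13 in S-G2-M and -0.77 ± 0.13 in unsorted cells. Of all genes tested 11.4% fell in all 5 fractions, 4.47% in 4 and 54.6% in none. Mms22l, Nbn, Blm and Msh6 fell in 4 of the 5 fractions, and 5 genes fell in none (Rad51d, Rad50, Fancb, Fancf and Fancg). The S-G2-M calls in these counts did not hold without preparation 5 or without 8. In each other fraction fewer repair genes were called lower in these fits as well, so that the counts of fractions rest on both E13.5 preparations.

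**Figure D4:**
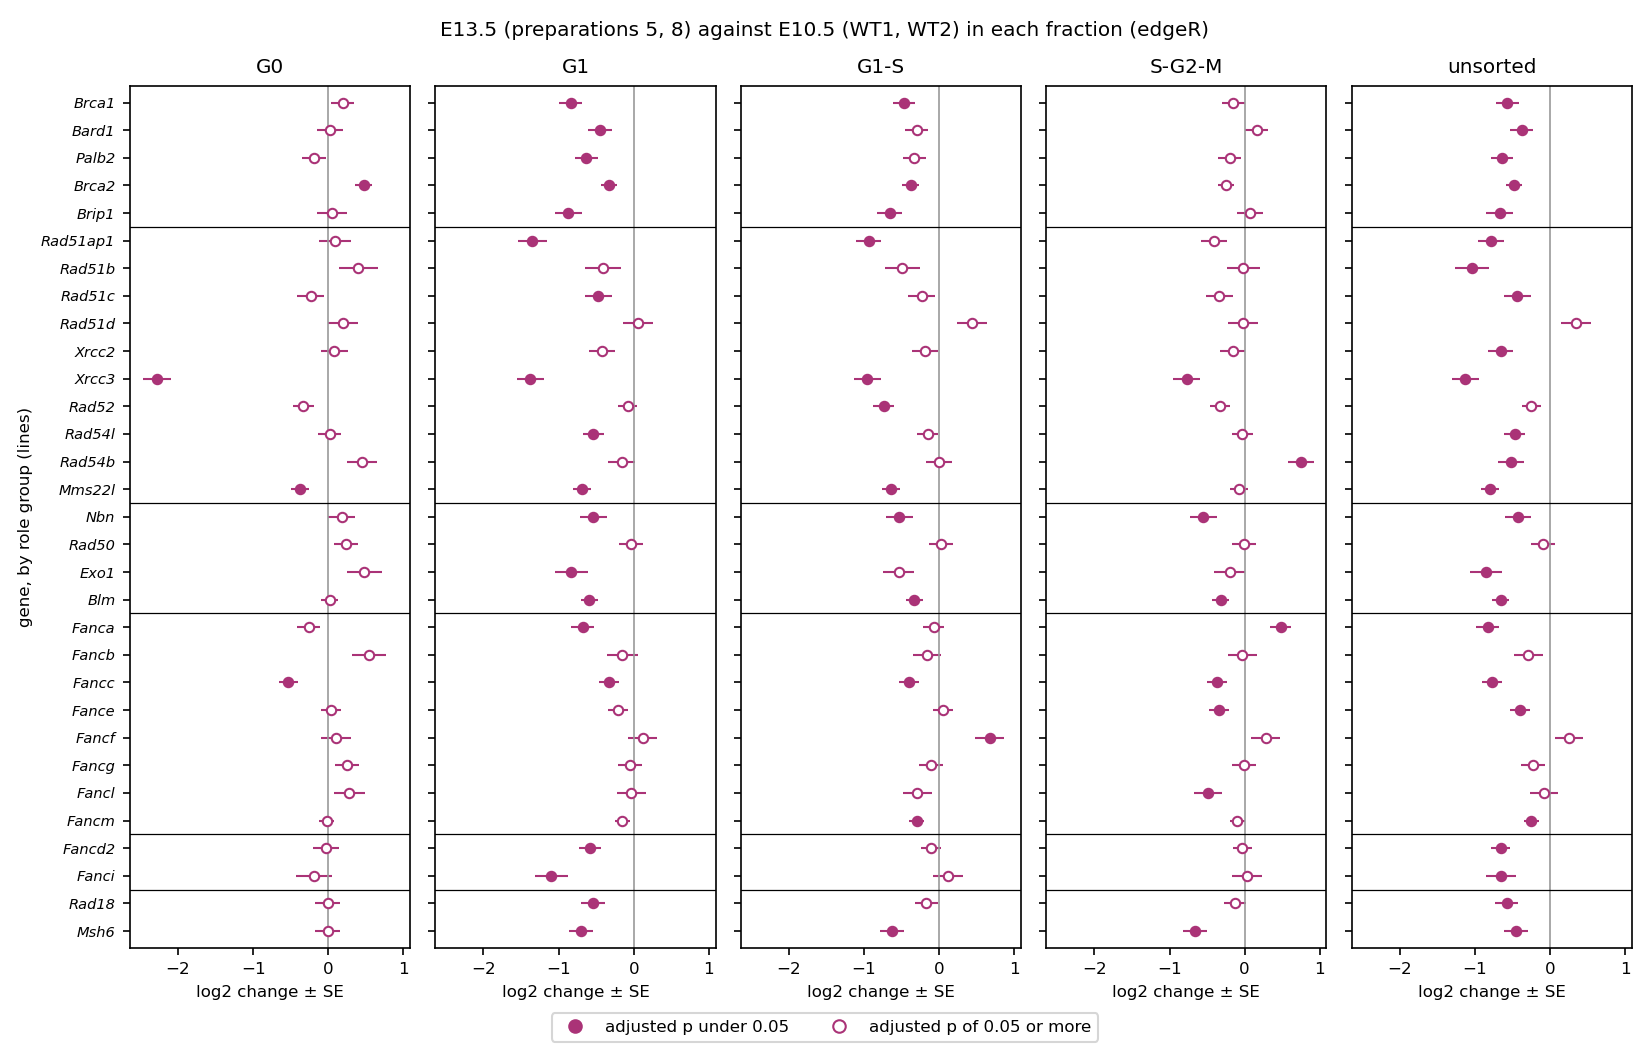
Log2 change of each of the 31 genes at E13.5 (preparations 5 and 8) against E10.5 (WT1 and WT2) in each fraction (± SE, edgeR); filled points passed the test at an adjusted p under 0.05. Most points lie left of 0 in G1 and in unsorted cells and around 0 in G0 and S-G2-M, and Xrcc3 lies left of 0 in all 5 panels, at -2.28 in G0.

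Whether a step between gates differed between days was tested as a difference of the step at E13.5 minus that at E10.5. For G1 against G0, 5 genes had a smaller rise at E13.5, where 3.51% of all genes differed in either direction: Rad51ap1 (-1.44 ± 0.28, adjusted p = 0.00684), Exo1 (-1.32 ± 0.32, 0.0287), Brca1 (-1.03 ± 0.22, 0.0119), Brca2 (-0.80 ± 0.16, 0.0082) and Blm (-0.61 ± 0.16, 0.0398). With the preparation as a block 8 genes had a smaller and 1 a larger rise, where 1253 of 23506 genes had a lower step difference and 565 a higher one. The count of smaller rises was larger without WT1 and without WT2, as was that over all genes. None of these calls held without 5 or without 8, where the count over all genes was smaller too. For G1-S against G1 the step of Fanci was larger at E13.5 (1.21 ± 0.29, adjusted p = 0.0224), where 5.31% of all genes differed, and it was not called without preparation 5 or without 8 (adjusted p = 0.417 and 0.578). With the block 2 genes had a larger and 1 a smaller step, where 1697 of 23506 genes had a larger and 991 a smaller one. Without WT1 or without WT2 more genes had a larger step, among these genes and among all genes. For S-G2-M against G1-S no gene passed the test, where 1.02% of all genes did. At an unadjusted p under 0.05 it was 7 higher and 1 lower, and by DESeq2 1 higher and 0 lower. Without WT1 and without WT2 some were called higher, and the count over all genes was larger as well.

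E11.5 had 1 preparation and was not tested. Unsorted WT3 cells had the highest unsorted level of Msh6, with 189 and 252 CPM at E10.5, 341 CPM at E11.5 and 159 and 162 CPM at E13.5. The same held for Exo1, with 93.3 and 115 CPM at E10.5, 150 CPM at E11.5 and 58.3 and 57.4 CPM at E13.5. Many more of the 31 genes were highest in unsorted WT3 cells, and others, such as Bard1, were not. The G1-S markers also summed highest there, to 4105 CPM, against 2133 and 2748 CPM at E10.5 and 1690 and 1774 CPM at E13.5. Their part in these levels was not tested. In 137 of 155 pairs of gene and preparation the unsorted level lay inside the range of the 4 gates, which was not counted over all genes. The erythroid markers summed to 16571 to 36787 CPM in unsorted cells and to at most 3132 CPM in a sorted library.

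Some exons of these genes are shared with other genes, and whether reads were counted by strand is not given in the sources used here, so part of their counts may belong to the neighbour. Rad54b shares 35.8% of its exon bases with Fsbp on the same strand. On the opposite strand the shared part was 18.6% for Fancc, 16.0% for Fanci (Polg), 15.4% for Rad54l (Lrrc41), 15% for Fancf (Gas2), 13.7% for Fancl (Vrk2) and 10.5% for Fanca (Zfp276), and it was at most 7.1% for the other genes, by GENCODE M21.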

How the data were processed

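Embryos were minced and flow-sorted, RNA was depleted of ribosomal RNA, and libraries were built by Illumina methods, per the labels' protocols. The authors deposited raw counts per gene for 130 samples, made with STAR 2.5.3 and HTSeq 0.8.0 on mm10, per the submitters' processing notes; strandedness and annotation: not given in the sources used here. Samples of a preparation and fraction were summed to 25 libraries, since parts differed little beyond counting error (dispersion index 1.09 to 1.23, against 5.9 to 117.5 between preparations). All table entries named a gene.

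Tests used edgeR 4.0.16 in R 4.3.3: filterByExpr (minimum count 10, minimum total 15), TMM and the quasi-likelihood F test, with Benjamini-Hochberg adjustment over 23506 genes at 0.05. Steps between gates had gate and day as terms, and the days and step differences a mean for each gate and day. The tests were checked on simulated counts, drawn independently for each library. Such counts cannot show how the tests behave where libraries of 1 preparation deviate together. Alternatives were RLE factors, no filter, no Gm26917 and Gm42418, DESeq2 1.42.0, a preparation block, each preparation left out, and each title style alone. Libraries of 1 preparation, paired by title, deviated together: over 14890 genes the E10.5 pair correlated by 0.166 to 0.682 between fractions and the E13.5 pair by 0.164 to 0.446. The members and lists were chosen with earlier results of these data known. All members are named; per-library values go to those with the highest and lowest log2 change of each role group and to those called against the majority or between days. Of the other lists up to 2 genes each way are named.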

Additional observations from a re-analysis of the deposited data

Results flagged for a closer look

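In 155 groups of 5 libraries, 1 gene in 1 fraction each, 3 held a library far from the other 4, where chance gives about 1 in 20 groups. Rad54l in G1-S stood at 85.4 CPM in WT1, with the others at 70.1 to 71.8 CPM. Mms22l in S-G2-M stood at 132 CPM in WT1, with the others at 115 to 120 CPM. Rad18 in S-G2-M stood at 61.3 CPM in preparation 8, with the others at 70.9 to 74.2 CPM.

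Of 93 differences of a step between E13.5 and E10.5 that were tested, 6 passed the edgeR test. The log2 step of G1 against G0 differed by -1.44 for Rad51ap1 (adjusted p = 0.00684), -1.32 for Exo1 (0.0287), -1.03 for Brca1 (0.0119), -0.80 for Brca2 (0.0082) and -0.61 for Blm (0.0398). The log2 step of G1-S against G1 differed by 1.21 for Fanci (adjusted p = 0.0224).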

How the results depend on the processing

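Of 3813 values of single genes under an alternative, 3504 kept their side of the threshold. A change of direction was counted only where a fit called the gene, so these may hold others. Of the rest 202 fell short of the threshold, 106 newly passed it and 1 reversed. The last was that of Rad52 in G1-S against G1 in preparations 5 and 8 alone (-0.43), which gave the 1 lower gene there. The counts of higher genes in G1 against G0, G1-S against G1 and S-G2-M against G0 stayed within 1.5 times under all alternatives run. In S-G2-M against G1-S the higher count was 2 and the lower 5 with no filter; the higher count was 0 in the WT-titled preparations alone and 3 in 5 and 8 alone. Left-out preparations gave 0 to 1 higher and 1 to 4 lower. In the day comparisons, left-out preparations gave 0 to 9 higher and 1 to 6 lower in G0, 4 to 20 lower in G1, 0 to 2 higher and 4 to 16 lower in G1-S, 0 to 2 higher and 0 to 9 lower in S-G2-M, and 10 to 27 lower in unsorted cells. With no filter it was 2 higher in G0, 0 higher in G1-S and 3 lower in S-G2-M, and DESeq2 gave 4 lower in S-G2-M.

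For the difference of G1 against G0 between days, left-out preparations gave 0 to 1 higher and 0 to 13 lower, DESeq2 1 higher, and the paired fit with the replicate block 1 higher and 8 lower. For G1-S against G1, left-out preparations gave 0 to 9 higher and 0 to 1 lower, the block 2 higher and 1 lower, and RLE factors, DESeq2 and the fit without Gm26917 and Gm42418 1 lower each. For S-G2-M against G1-S, left-out preparations gave 0 to 4 higher, and no filter and DESeq2 1 each. In the day comparisons and step differences the counts over all genes moved between these fits as well. The percentages given with the days and step differences are those of the main fit. The causes were not tested. The block left the counts of the steps over all days at 26, 28 and 30 higher; days could not be blocked, because each preparation has 1 day. Leaving out Gm26917 and Gm42418 shifted the median log2 change of all genes in the unsorted day comparison by -0.104.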
